A study of Mus musculus with 8 samples.

Results

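The genes described here encode the nuclear subunits of the mitochondrial respiratory chain and of ATP synthase, measured in mouse liver. They were taken by gene name from the array annotation (the Nduf, Sdh, Uqcr, Cox4 to Cox8 and Atp5 series, Cyc1 and Cycs), with the brightest probe standing for each gene. Of 82 such genes, 79 had a probe that exceeded background clearly on both arrays in 1 group or more and were kept, out of 17048 genes tested. They comprise 35 genes of complex I, 4 of complex II, 8 of complex III, the cytochrome c gene Cycs, 15 of 18 genes of complex IV and 16 of complex V. All 79 were well above background on all 8 arrays. Cox4i2, Cox8b and Cox8c were not kept: their probes were well above background on 2, 1 and 0 of the 8 arrays.

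Total RNA came from the liver of C57BL/6J mice, labelled normal, and of KKAy mice, labelled diabetes, at 4 and 11 weeks of age. KKAy mice carry the yellow agouti allele, which leads to obesity and high blood glucose, on a background that is not C57BL/6J. All mice ate normal chow and were fasted overnight for 13.5 h. Each of the 4 groups had 2 arrays; the labels do not say that these were separate animals, so p-values measure the spread between arrays, which may be technical. The sources used here do not give the sex of the mice.

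The respiratory chain passes electrons from NADH (complex I) and succinate (complex II) through complex III and cytochrome c to oxygen at complex IV, and complexes I, III and IV pump protons across the inner mitochondrial membrane. ATP synthase, complex V, lets the protons back and makes ATP. Most subunits are encoded in the nucleus, several of complex IV exist as isoforms made in particular tissues, and in liver the chain takes up the electrons released by fatty acid oxidation during fasting. Some names that the rule admits are not subunits in current usage: Cox4nb is now Emc8, a subunit of an endoplasmic reticulum membrane complex, Atp5s is now Dmac2l, and Cox7a2l helps to join complexes III and IV. Ndufa4, counted here with complex I by its name, is now placed in complex IV.

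The upstream sequences of 5 genes are shown because nuclear respiratory factor 1 (NRF1) is a classical regulator of this gene set. They are the members that passed the main test below in any comparison, except Cox6a2, which had no promoter entry. Cycs, which passed in none, is added. Each line gives the 250 bases before the RefSeq start site on assembly GRCm38.p6, 5′ to 3′ on the gene's strand, and a promoter entry was found for 65 of the 79 genes. Capitals mark matches, on either strand, to the long NRF1 pattern (GCGCA, any base, then GCGC) or the short NRF1 site CATGCGC. They also mark the cyclic AMP response element TGACGTCA and the GC box GGGCGG.
Ndufa11 (chr17:56717512-56717761, plus strand): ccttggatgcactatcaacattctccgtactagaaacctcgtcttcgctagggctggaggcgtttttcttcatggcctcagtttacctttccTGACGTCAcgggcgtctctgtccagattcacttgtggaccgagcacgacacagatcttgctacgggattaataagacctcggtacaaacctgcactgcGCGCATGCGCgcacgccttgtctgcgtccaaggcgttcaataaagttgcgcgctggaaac
Sdha (chr13:74350241-74350490, minus strand): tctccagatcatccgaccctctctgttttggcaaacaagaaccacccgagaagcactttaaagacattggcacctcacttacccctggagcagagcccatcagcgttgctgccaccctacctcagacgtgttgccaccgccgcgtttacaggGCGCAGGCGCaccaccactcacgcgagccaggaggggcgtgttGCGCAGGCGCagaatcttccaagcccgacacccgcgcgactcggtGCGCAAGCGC
Cycs (chr6:50566570-50566819, minus strand): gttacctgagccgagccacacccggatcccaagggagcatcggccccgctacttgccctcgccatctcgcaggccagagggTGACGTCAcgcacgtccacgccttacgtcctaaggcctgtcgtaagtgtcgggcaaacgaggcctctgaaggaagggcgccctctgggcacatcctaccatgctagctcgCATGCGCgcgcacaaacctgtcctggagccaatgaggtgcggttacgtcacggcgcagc
Cox7c (chr13:86046796-86047045, minus strand): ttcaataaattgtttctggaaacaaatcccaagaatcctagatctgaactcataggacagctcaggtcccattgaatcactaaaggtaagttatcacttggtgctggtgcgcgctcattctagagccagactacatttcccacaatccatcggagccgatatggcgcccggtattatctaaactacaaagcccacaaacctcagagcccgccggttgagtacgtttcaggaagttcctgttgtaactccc
Cox6b2 (chr7:4753095-4753344, minus strand): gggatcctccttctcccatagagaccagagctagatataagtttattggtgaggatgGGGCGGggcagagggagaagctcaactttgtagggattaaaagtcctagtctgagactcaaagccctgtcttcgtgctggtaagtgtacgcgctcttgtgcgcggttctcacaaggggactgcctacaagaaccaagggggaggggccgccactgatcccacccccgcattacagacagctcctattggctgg

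The 5 windows differ in these letters. Sdha, the catalytic flavoprotein of complex II, has 3 matches to the long NRF1 pattern, the last ending at the base before the start site. Each has G or A at the free base, so none is a palindrome. Ndufa11, an accessory subunit of the complex I membrane arm, has 1 match, a palindrome at bases -60 to -51. Matches to the short site on both strands overlap in it. Ndufa11 also has 1 cyclic AMP response element. Cycs has 1 short NRF1 site and 1 cyclic AMP response element. Cox6b2, an isoform of complex IV best known from testis, has a GC box only, and Cox7c, a small subunit of complex IV made in all tissues, has none of these letters in the window. A match is a description of letters and no site of binding.

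Over all 65 genes the long NRF1 pattern was found in 13, or 20%, against 4.23% of the 27025 genes in the promoter table. The short site was found in 11 of the 65 (16.9% against 3.68%), and it can lie inside the long pattern, so the counts overlap. The ETS motif CCGGAAG, bound by GABPA, was found in 12 (18.5% against 7.83%) and the cyclic AMP response element in 5 (7.69% against 1.77%). The GC box was as frequent among the members as in the table (35.4% of each), and the letters TATAAA were found in 5 (7.69% against 14.3%). The YY1 motif AAGATGGC and the oestrogen-related receptor motif TCAAGGTCA were each found in 1 gene (1.54%, against 1.83% and 0.422%).

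Cy3-labelled cRNA was hybridised to 1-colour Agilent arrays. The 75th percentile of the signal ran from 476 to 1192 units, and the share of spots well above background ran from 56.3% to 66.7%. Levels are given as log2 signal minus the array's 75th percentile, so that 0 is the signal of that percentile and levels of different probes are not comparable. The 4-week arrays were on slide 1 and the 11-week arrays on slide 2, and the effects of age and of slide cannot be told apart. Within each slide C57BL/6J took positions 1 and 2 and KKAy positions 3 and 4, so strain and position cannot be told apart either. All 12 measured hepatocyte markers were well above background on both arrays of every group. Between strains 1 of the 12 was lower in KKAy at 4 weeks, and at 11 weeks 3 were higher and 4 lower by the test (limma). Of all genes 15.4% passed it at 4 weeks and 21.5% at 11 weeks. With age none passed in C57BL/6J, where 2 had an unadjusted p under 0.05, and 2 rose and 2 fell in KKAy. The shares of all genes were 8.35% and 18.6%. In liver RNA, fewer cells of a type and less RNA per cell cannot be told apart. Scaling to the spike-in controls in place of the 75th percentile moved the median difference of all genes. The strain and age differences of the main fit given below move with it. The shifts were 0.35, 0.14 and 0.01 (strain at 4 weeks, strain at 11 weeks and age in C57BL/6J), -0.21 (age in KKAy) and -0.22 (interaction). The share of calls that were higher went from 41.6% to 75.9% for strain at 4 weeks, from 46.4% to 60.7% at 11 weeks, and from 42.4% to 19.4% for age in KKAy.

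Most of these genes read higher on the same array of each group. The array labelled replicate 2 was higher than replicate 1 for 71 of 79 members in C57BL/6J at 4 weeks, with a median difference of 0.36. The same held for 71 members in C57BL/6J at 11 weeks (median 0.24), 72 in KKAy at 4 weeks (0.37) and 72 in KKAy at 11 weeks (0.42). Among all 17048 genes, 56.9% to 64.8% were higher on replicate 2, with medians of 0.05 to 0.15. For 70 members replicate 2 was higher in all 4 groups; Atp5d, Ndufa3, Sdha and Sdhc were lower on it in all 4. Complex III had medians of 0.30 to 0.50 over the 4 groups and complex I of 0.28 to 0.43, whereas those of complex II lay between -0.15 and 0.00. Replicate 2 had the lower 75th percentile in each group, by the least in C57BL/6J at 11 weeks (655 and 615 units) and by the most in C57BL/6J at 4 weeks (1192 and 673 units). The part of this signal difference in the shift was not tested.

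**Figure D1:**
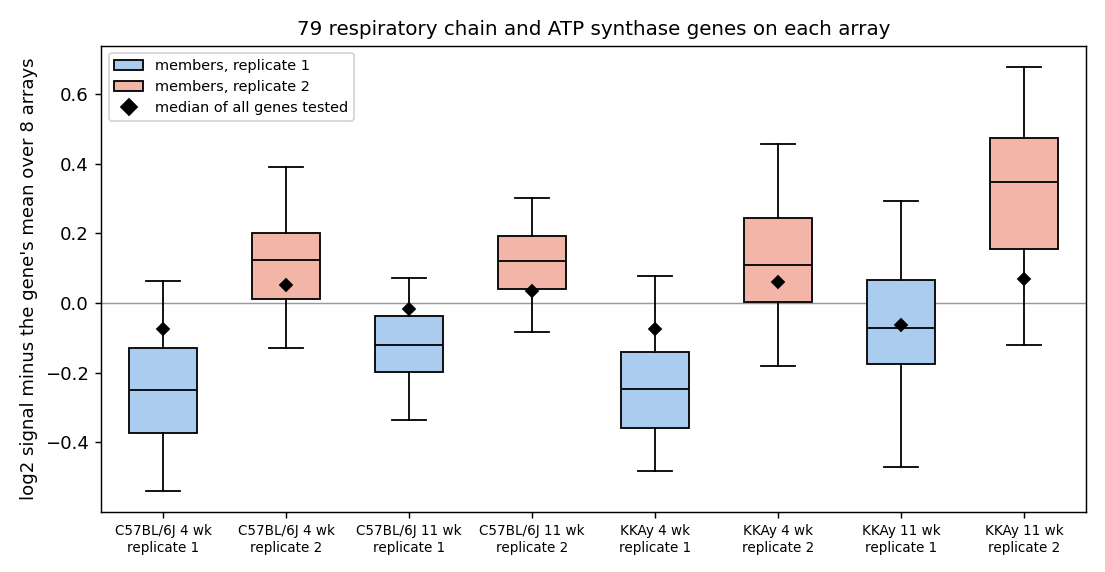
Boxes give the quartiles, and whiskers the 5th to 95th percentile, of the 79 genes' log2 signal minus each gene's mean over the 8 arrays (vertical axis), for each array (horizontal axis, by group and replicate); diamonds give the median of all genes tested. The median of the members lies at -0.25 on replicate 1 of both 4-week groups and at 0.35 on replicate 2 of KKAy at 11 weeks, and replicate 2 is above replicate 1 in each group.

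The strain comparison asks how the liver of KKAy mice differs from that of C57BL/6J mice at each age. At 4 weeks Ndufa11 was higher in KKAy and Cox6a2 lower: 2 of 79 members passed an adjusted p of 0.05 (limma, Benjamini-Hochberg over all genes; named a call below), where 15.4% of all genes did. At 11 weeks Ndufa11 and Cox7c were higher and Cox6b2 lower, which makes 3 of 79 against 21.5% of all genes. At 4 weeks 43 members lay above 0 and 36 below, with a median of 0.00 (all genes 0.01). At 11 weeks 62 lay above 0 and 17 below, with a median of 0.12; of all genes 8521 lay above 0 and 8526 below. That median ranged from -0.07 to 0.33 when 1 array was left out, at its lowest without replicate 2 of KKAy and at its highest without replicate 1 of KKAy, and was 0.02 after quantile normalization.

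**Figure D2:**
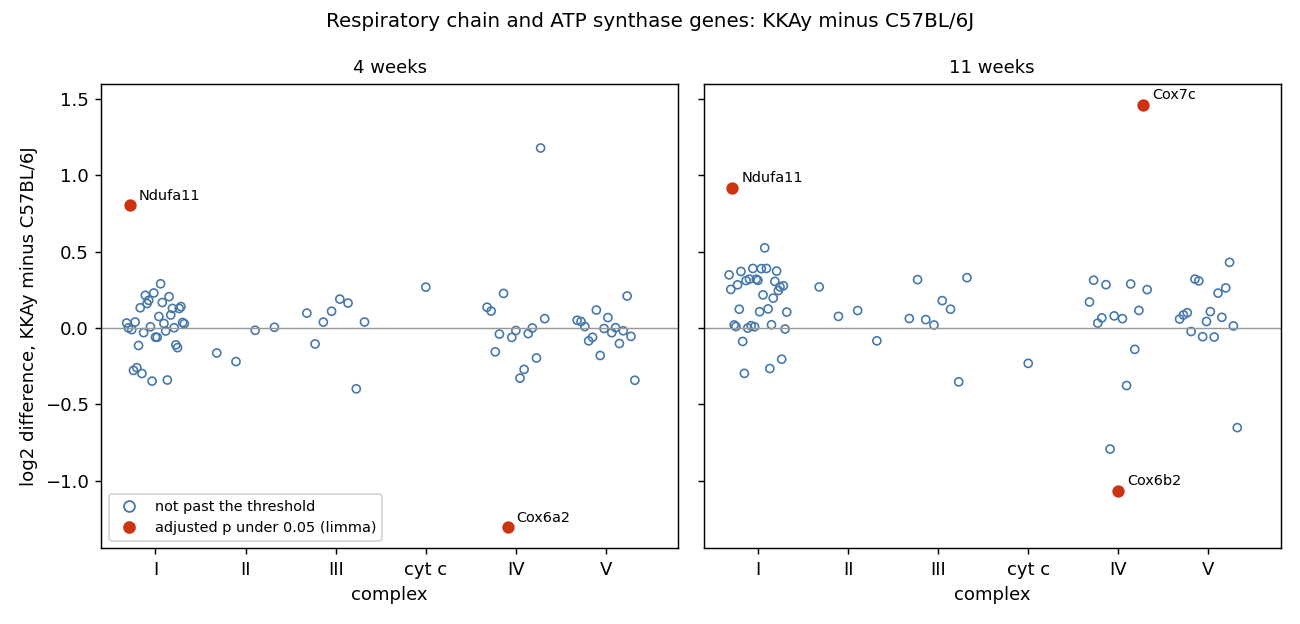
Each point is 1 of the 79 genes, placed by complex (horizontal axis) and by its log2 difference, KKAy minus C57BL/6J (vertical axis), at 4 weeks (left) and 11 weeks (right), each from 2 arrays a group; filled points passed an adjusted p of 0.05. Nearly all open points lie within 0.5 of 0, while Ndufa11, Cox7c, Cox6a2 and Cox6b2 stand away from them.

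The precision bounds what these counts can show. The difference was under 0.5 in size for 76 members at 4 weeks and 73 at 11 weeks. Its 95% interval lay within 1 log2 unit of 0 on both sides for 66 and 57 of the 79, so that a change of 2-fold was outside the interval for most members and not for the rest. The standard error of a difference ran from 0.09 to 0.44 with a median of 0.23. The arrays of the 2 strains did not overlap for 8 members at 4 weeks (5 higher in KKAy, 3 lower) and for 21 at 11 weeks (15 higher, 6 lower), whereas 48.6% and 57.2% of all genes did not overlap. Overlap also depends on the difference between replicates. Its median over the 4 groups was 0.24 to 0.42 for the members and 0.05 to 0.15 for all genes. Its part in these counts was not tested.

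In complex I, which takes electrons from NADH, Ndufa11 was higher in KKAy at both ages. Its probe (mRNA BC059729, mm8 chr17:56402942-56403001) read 0.96 and 1.34 in C57BL/6J and 1.80 and 2.11 in KKAy at 4 weeks. The 11-week readings were 1.15 and 1.35 in C57BL/6J and 2.00 and 2.34 in KKAy. Every KKAy array was above every C57BL/6J array. The difference was 0.80 (SE 0.20, 1.75-fold, adjusted p = 0.0489, limma) at 4 weeks and 0.92 (SE 0.20, 1.89-fold, adjusted p = 0.0253) at 11 weeks. A second probe of the gene differed by 0.79 and 0.83. The 4-week call was lost without any 1 of the 4 arrays compared (differences of 0.62 to 0.99). The 11-week call was lost without replicate 1 or 2 of C57BL/6J (0.82 and 1.02) or replicate 2 of KKAy (0.75).

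The other 34 genes of complex I did not pass the test at either age; Ndufa10 had an unadjusted p under 0.05 at 11 weeks (0.25). At 4 weeks they lay between -0.35 (Ndufb2) and 0.29 (Ndufb7). At 11 weeks they lay between -0.30 (Ndufa6) and 0.53 (Ndufb8); over all 35 genes 29 were above 0 and the median was 0.25, against 0.03 at 4 weeks. For Ndufb8 the 2 probes gave 0.53 and -0.56 at 11 weeks. Ndufa12, an accessory subunit chosen here after its values were seen, also has probes that disagree: the brightest differed between strains by -0.01 at 4 and 0.02 at 11 weeks, and the other 2 by 0.56 to 0.64 at both ages. On the first of those, C57BL/6J read 3.28 and 3.69 and KKAy 3.87 and 4.22 at 4 weeks.

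Complex II, which oxidises succinate, had no strain call among its 4 genes (limma; none at an unadjusted p under 0.05 either). They lay between -0.22 (Sdhb, the iron-sulphur subunit) and 0.01 (Sdhd, a membrane anchor) at 4 weeks and between -0.08 (Sdhd) and 0.27 (Sdha) at 11 weeks. Complex III likewise had none among 8 at either threshold. At 4 weeks its genes lay between -0.40 (Uqcrh, the hinge protein) and 0.19 (Uqcrc2, a core protein). At 11 weeks they ran from -0.35 (Uqcrh) to 0.33 (Uqcrq). A second probe of Uqcrh gave -0.07 at 4 weeks and -0.05 at 11 weeks. A dim second probe of Uqcrq gave -0.26 and -0.19.

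Cycs, the mobile electron carrier between complexes III and IV, read 5.30 and 5.94 in C57BL/6J and 5.59 and 6.19 in KKAy at 4 weeks. At 11 weeks its probe (mRNA NM_007808, mm8 chr6:50494842-50494901) read 5.58 and 6.01 in C57BL/6J and 5.25 and 5.88 in KKAy. The groups overlapped at both ages. The differences of 0.27 (95% interval -0.59 to 1.12) and -0.23 (-1.09 to 0.62) did not pass the test, and the other 2 probes gave 0.08 at 4 weeks and -0.06 and -0.12 at 11 weeks.

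Complex IV, which hands electrons to oxygen, held the members that differed most. Cox7c (mRNA NM_007749, mm8 chr13:86518268-86519145) read 2.97 and 3.25 in C57BL/6J and 3.99 and 4.59 in KKAy at 4 weeks. At 11 weeks it read 3.16 and 3.38 in C57BL/6J and 4.38 and 5.09 in KKAy. All 4 KKAy arrays were above all 4 C57BL/6J arrays. The difference was 1.46 at 11 weeks (SE 0.30, 2.76-fold, adjusted p = 0.0203), a call lost without replicate 1 or 2 of C57BL/6J (1.35 and 1.57) or replicate 2 of KKAy (1.11). At 4 weeks it was 1.18 (SE 0.30, 2.26-fold) and missed the threshold (adjusted p = 0.0514), which it passed under 5 of the alternatives.

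**Figure D3:**
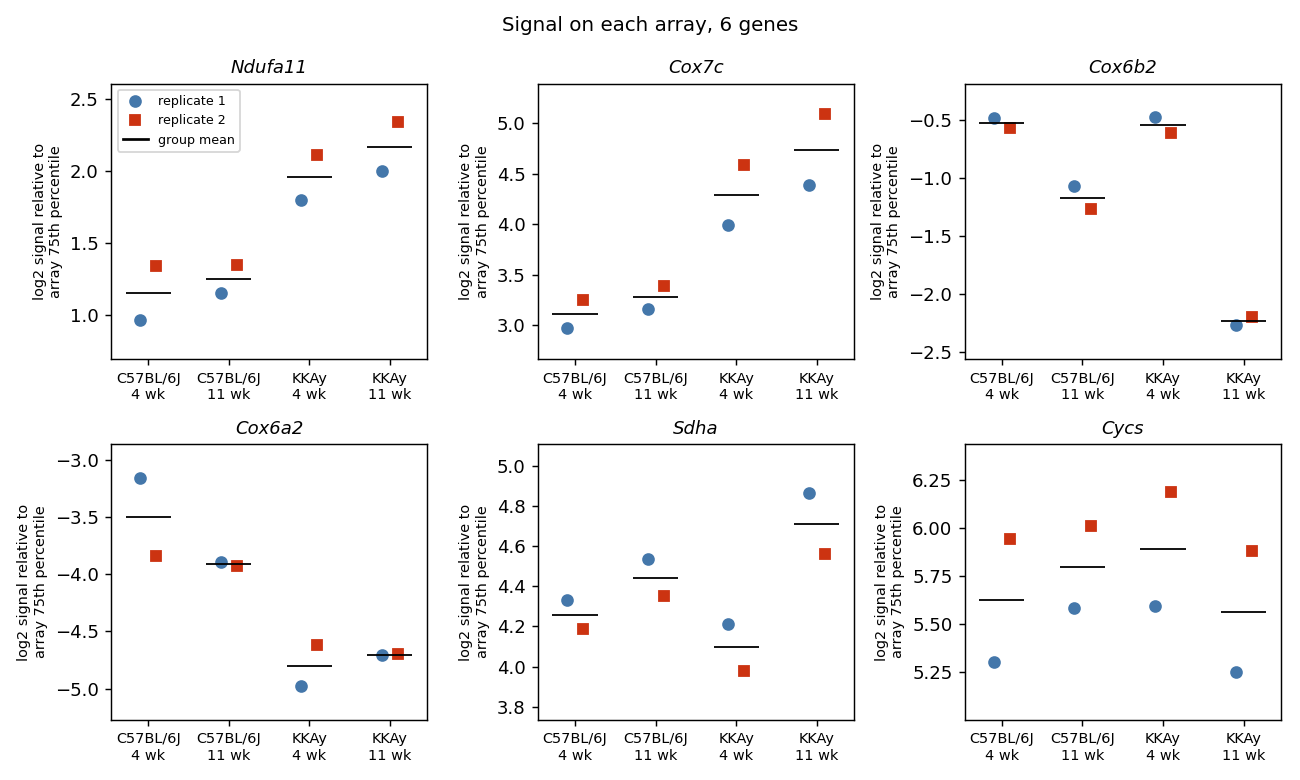
Log2 signal relative to the array's 75th percentile (vertical axes, each with its own range) for 6 genes in the 4 groups (horizontal axes); circles are replicate 1, squares replicate 2 and lines the mean of 2 arrays. Ndufa11 and Cox7c are higher on every KKAy array, Cox6b2 falls to -2.27 and -2.20 in KKAy at 11 weeks, and Cycs varies more between replicates than between groups.

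Cox6b2 was lower in KKAy at 11 weeks. Its probe (mRNA NM_183405, mm8 chr7:4354973-4355032) read -0.49 and -0.57 in C57BL/6J and -0.48 and -0.61 in KKAy at 4 weeks. By 11 weeks the readings were -1.08 and -1.27 in C57BL/6J and -2.27 and -2.20 in KKAy. The groups overlapped at 4 weeks and were apart at 11 weeks. The difference was -1.06 at 11 weeks (SE 0.12, 2.09-fold lower, adjusted p = 0.00224), and none of the alternatives run ended this call (adjusted p 0.000516 to 0.0253). At 4 weeks it was -0.02 (95% interval -0.30 to 0.27), and the sign turned with normexp, quantile or spike-in processing.

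Cox6a2, the heart and skeletal muscle isoform of subunit VIa, was lower in KKAy at 4 weeks. Its probe (mRNA NM_009943, mm8 chr7:127996794-127996853) was dim: it read -3.16 and -3.84 in C57BL/6J and -4.98 and -4.62 in KKAy at 4 weeks. At 11 weeks it read -3.90 and -3.93 in C57BL/6J and -4.71 and -4.70 in KKAy. The strains did not overlap at either age. The difference was -1.30 at 4 weeks (SE 0.24, 2.47-fold lower, adjusted p = 0.0178) and -0.79 at 11 weeks (SE 0.24, adjusted p = 0.0694). The 11-week difference was -0.19 under normexp, and it passed when fitted on the 4 arrays compared alone (adjusted p = 0.0326, limma). The 4-week call ended with normexp background correction (-0.46), with spike-in scaling (-0.95) and without replicate 1 of KKAy (-1.12), and also, at the same difference, without a filter on dim probes or from the 4 arrays alone.

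Of 15 skeletal muscle markers 9 were measured; Ckm, Mb, Myh1, Myl1, Pvalb and Tnnt3 were not well above background in any group. The summed signal of the 9, as a multiple of the 75th percentile, was 1.16 to 1.31 in C57BL/6J and 1.20 to 1.35 in KKAy at 4 weeks, and 1.30 to 1.49 and 1.46 to 1.59 at 11 weeks. None of the 9 passed the strain test at 4 weeks, when 1, Myh4, had an unadjusted p under 0.05. At 11 weeks Myh4, a fast myosin heavy chain, was lower in KKAy by the test (-1.75, SE 0.19, adjusted p = 0.00215), with dim readings of -5.03 and -5.19 in C57BL/6J and -6.97 and -6.76 in KKAy, a call kept with each array left out (-1.85 to -1.65); 2 others were higher at an unadjusted p under 0.05 only. With age Myh2 (1.53) and Myh4 (0.87) rose in C57BL/6J, and in KKAy Myh2 rose (1.68) and Des fell by 0.68. These age calls were lost without 4, 3, 2 and 2 of the 4 arrays compared, taken 1 at a time (1.29 to 1.77, 0.63 to 1.12, 1.34 to 2.01 and -0.78 to -0.59). Their part in the difference of Cox6a2 was not tested. Cox7a1, the muscle isoform of subunit VIIa, read 0.60 and 0.95 in C57BL/6J and 0.35 and 0.66 in KKAy at 4 weeks, and 0.26 and 0.53 against -0.20 and 0.24 at 11 weeks. Its differences of -0.27 and -0.38 (SE 0.22) did not pass the test. Among the rest of complex IV the lowest at 4 weeks was Cox6c, at -0.33, and the highest at 11 weeks was Cox4nb, at 0.31.

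In complex V none of 16 genes passed the strain test (limma) at either age, nor had any an unadjusted p under 0.05. They lay between -0.34 (Atp5s) and 0.21 (Atp5l, subunit g) at 4 weeks and between -0.65 (Atp5s) and 0.43 (Atp5l) at 11 weeks. The medians were -0.01 and 0.08. In 2 genes, chosen here after their values were seen, the second probe gave larger differences. That of Atp5s differed by -0.63 and -1.09, reading -0.997 and -0.849 in C57BL/6J and -2.11 and -1.91 in KKAy at 11 weeks. That of Atp5j2, dim where the brightest probe was strong, differed by -0.97 and -1.01, against -0.10 and 0.07 on the brightest. With the median of all probes of a gene Atp5j2 passed at both ages (-0.53, adjusted p = 0.0314, and -0.47, adjusted p = 0.0373), and Atp5s did not (adjusted p = 0.278 and 0.0539).

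The age comparison asks what changed between 4 and 11 weeks within a strain. It shares its arrays with the strain comparison, and age goes with slide. In C57BL/6J Cox6b2 fell, 1 of 79 members where 8.35% of all genes passed the test. In KKAy Sdha rose and Cox6b2 fell, 2 of 79 against 18.6%. The median change was 0.07 in C57BL/6J (64 members above 0; all genes 0.05) and 0.22 in KKAy (66 above 0; all genes 0.02). The KKAy median ranged from 0.03 to 0.40 when 1 array was left out and was 0.01 after quantile normalization. The change was under 0.5 in size for 78 members in C57BL/6J and 73 in KKAy, and its 95% interval lay within 1 log2 unit for 67 and 53. The ages did not overlap for 10 members in C57BL/6J (7 higher at 11 weeks) and 19 in KKAy (14 higher), against 49.2% and 51.7% of all genes. The part of the larger replicate difference of the members in this overlap was not tested.

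**Figure D4:**
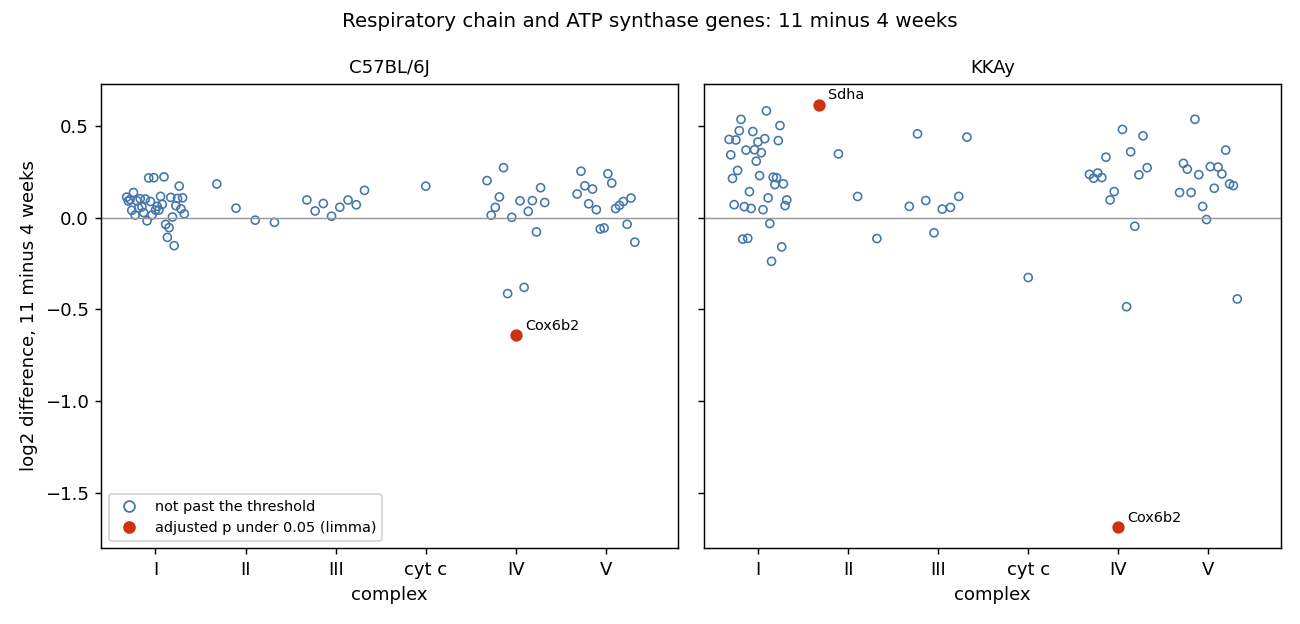
Each point is 1 of the 79 genes, placed by complex (horizontal axis) and by its log2 difference, 11 minus 4 weeks (vertical axis), in C57BL/6J (left) and KKAy (right), each from 2 arrays a group; filled points passed an adjusted p of 0.05. Cox6b2 lies at -0.64 and -1.69, Sdha at 0.62 in KKAy, and the other genes are spread more widely in KKAy than in C57BL/6J.

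Cox6b2 fell by 0.64 in C57BL/6J (SE 0.12, 1.56-fold, adjusted p = 0.0274) and by 1.69 in KKAy (SE 0.12, 3.22-fold, adjusted p = 0.000756), as its readings above show. The C57BL/6J call was lost without any 1 of its 4 arrays (-0.74 to -0.54); the KKAy call was kept under every alternative run. Sdha (mRNA NM_023281, mm8 chr13:74788700-74788759) read 4.21 and 3.98 in KKAy at 4 weeks and 4.86 and 4.56 at 11 weeks. In C57BL/6J it read 4.33 and 4.19, then 4.53 and 4.35. In both strains the ages did not overlap. The change was 0.62 in KKAy (SE 0.16, 1.53-fold, adjusted p = 0.0450) and 0.18 in C57BL/6J (adjusted p = 0.624). A second probe rose by 0.35 in KKAy, and the call was lost without any 1 of the 4 KKAy arrays (0.47 to 0.77) and under several other settings, among them quantile normalization (0.46) and spike-in scaling (0.41).

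With Sdha, 7 of 79 members were higher at 11 weeks in KKAy at an unadjusted p under 0.05, a smaller share than the 15.1% of all genes. That order held in the main fit and turned with a replicate block. With the replicate number as a block, a pairing the labels do not state, 39 of 79 were called higher against 27.4% of all genes. In the main fit the 6 genes besides Sdha did not pass the adjusted test. They were Ndufa10 at 0.34 (adjusted p = 0.0554), Ndufa3 at 0.48, Ndufa4 at 0.54, Ndufs6 at 0.50, Atp5e at 0.54 and Atp5k at 0.37. Ndufa3 has a second probe at -0.30. With the median of all probes of a gene Ndufs6 (0.49, adjusted p = 0.0494) and Ndufb2 (0.54, adjusted p = 0.0344) passed and Sdha did not (0.48, adjusted p = 0.129). Ndufs6 is a subunit of the electron input arm of complex I, and Atp5e and Atp5k are the epsilon and e subunits of ATP synthase. Complex I genes lay between -0.24 (Ndufs1, an iron-sulphur subunit) and 0.58 (Ndufb9), and those of complex III between -0.08 (Uqcrc1) and 0.46 (Uqcr, now Uqcr11). In C57BL/6J all 8 genes of complex III lay between 0.01 and 0.15 on the brightest probe, while second probes of Uqcrc1 and Uqcrq gave -0.06 and -0.72.

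The difference between the strain comparisons at 11 and at 4 weeks was tested as an interaction. Cox6b2 passed, at -1.05 (SE 0.16, adjusted p = 0.0306), 1 of 79 members where 3.81% of all genes passed. The call was lost without any 1 of the 8 arrays (-1.14 to -0.95). For Ndufa11 the interaction was 0.12 (95% interval -0.59 to 0.82) and for Cox7c 0.28 (-0.76 to 1.33), so that their strain differences at the 2 ages were not told apart at this precision. For Cox6a2 it was 0.51 (-0.33 to 1.35) and for Sdha 0.43 (-0.11 to 0.98). The interval lay within 1 log2 unit for 39 of 79 members. Without a filter on dim probes the members' differences were the same, while more genes entered both the spread estimate and the adjustment. Of the calls on members, those of Cox6b2 between strains at 11 weeks and with age in KKAy were kept. The cause of the lost calls was not tested. Fitted on the 4 arrays compared alone, the calls of Ndufa11 and Cox6a2 at 4 weeks and Cox6b2 with age in C57BL/6J were lost. That of Sdha with age in KKAy was lost too, while Cox6a2 between strains at 11 weeks passed.

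Genes that build and serve the chain were taken from lists of the same pathway. Their counts are to be read against the share of all genes called. Between strains that share was 6.41% higher and 8.99% lower in KKAy at 4 weeks, and 9.96% and 11.5% at 11 weeks. With age it was 1.89% higher and 6.46% lower in C57BL/6J, and 7.9% and 10.7% in KKAy. Of 14 complex I assembly factors, 1 was higher in KKAy at 4 weeks, and at 11 weeks 2 were higher and 1 lower, 3 of 14 where 21.5% of all genes were called. Ndufaf5, which modifies a complex I subunit during assembly, read -1.29 and -1.24 in C57BL/6J and -0.65 and -0.56 in KKAy at 4 weeks. At 11 weeks it read -1.49 and -1.40 in C57BL/6J and 0.01 and 0.11 in KKAy. All KKAy arrays were above all C57BL/6J arrays. The differences were 0.66 (SE 0.10, adjusted p = 0.00963) and 1.51 (SE 0.10, adjusted p = 0.000437), and the interaction was 0.85 (adjusted p = 0.0379). The 11-week call held under every alternative run (adjusted p at most 0.00874). The 4-week call was lost without replicate 1 or 2 of C57BL/6J or replicate 2 of KKAy (0.61 to 0.70), and the interaction without any 1 array (0.80 to 0.90).

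At 11 weeks Timmdc1, another complex I assembly factor, was higher by 0.49 and Ndufaf4 lower by 0.59 on the log2 scale; the first call was lost without any 1 of the 4 arrays (0.44 to 0.54), the second without either C57BL/6J array or replicate 1 of KKAy (-0.73 to -0.45). With age in KKAy Ndufaf5 rose by 0.67 (adjusted p = 0.00942) and Ndufaf4 fell by 0.86 (adjusted p = 0.0143); the first call was lost without replicate 1 at 4 weeks (0.61 to 0.72 over the arrays left out) and the second without either 4-week array or replicate 1 at 11 weeks (-0.995 to -0.72). None of 4 complex II assembly factors was called in any comparison, and 1, 1, 0, 1 and 0 had an unadjusted p under 0.05. Of 6 for complex III, Uqcc2 was 0.98 higher in KKAy at 11 weeks (SE 0.21, adjusted p = 0.0232) and rose by 0.90 with age in KKAy (adjusted p = 0.0347). It read 2.44 and 2.72 in C57BL/6J and 3.37 and 3.76 in KKAy at 11 weeks. The strain call was lost without either C57BL/6J array or replicate 2 of KKAy (0.79 to 1.18), and the age call without either 4-week array or replicate 2 at 11 weeks (0.71 to 1.10).

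Of 22 complex IV assembly factors none was called between strains (limma), though 3 at 4 weeks and 4 at 11 weeks had an unadjusted p under 0.05. With age in KKAy Cox19, a copper-handling factor, rose by 1.10 (adjusted p = 0.0188) and Cox10, which makes the heme A precursor, fell by 0.91 (adjusted p = 0.00964). The first call was lost without replicate 1 of KKAy at 4 weeks or replicate 2 at 11 weeks (0.91 to 1.30 over the arrays left out) and the second without replicate 1 at 4 weeks (-1.05 to -0.77). Of 4 genes of the complex V list, Atpif1, the inhibitor of ATP hydrolysis by the synthase, was higher in KKAy at 11 weeks. Its 11-week readings were 2.71 and 3.22 in C57BL/6J and 4.28 and 4.86 in KKAy, a difference of 1.61 (SE 0.34, adjusted p = 0.0220). At 4 weeks it read 3.47 and 4.03 against 4.41 and 5.01, which was not called. Without replicate 1 or 2 of C57BL/6J or replicate 2 of KKAy the 11-week call was lost (1.31 to 1.90).

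Of 24 regulators of mitochondrial biogenesis, 1 was lower in KKAy at 4 weeks and 1 higher at 11 weeks. At an unadjusted p under 0.05 (limma), 7 were higher and 1 lower at 4 weeks, against 2057 and 2553 of all 17048 genes. At 11 weeks 3 were higher and 3 lower at that threshold, against 2758 and 3065. Ppargc1a, the coactivator that drives mitochondrial biogenesis, read 1.86 and 2.17 in C57BL/6J and 0.22 and 0.68 in KKAy at 4 weeks. The older mice gave 0.24 and 0.63 in C57BL/6J and -0.90 and -0.12 in KKAy. C57BL/6J at 4 weeks stood above the other groups and KKAy at 11 weeks below them. The strain difference at 11 weeks and the age change in KKAy were not called. The difference was -1.57 between strains at 4 weeks (SE 0.31, adjusted p = 0.0229) and -1.58 between ages in C57BL/6J (SE 0.31, adjusted p = 0.0361); each was lost without any 1 of the arrays compared (-1.80 to -1.34, and -1.77 to -1.39). These 2 comparisons share the C57BL/6J arrays at 4 weeks.

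Its relative Ppargc1b fell with age by 0.70 in C57BL/6J (SE 0.09, adjusted p = 0.00880) and by 0.98 in KKAy (SE 0.09, adjusted p = 0.00201). In C57BL/6J it read 1.31 and 1.29, then 0.62 and 0.59; in KKAy it read 1.36 and 1.40, then 0.37 and 0.43. The C57BL/6J call was lost without any 1 array (-0.71 to -0.68). With age in KKAy Nfe2l2, a regulator of the oxidative stress response, rose by 0.75 and Tfb1m, a methyltransferase of mitochondrial ribosomal RNA, fell by 0.57. The first call was lost without either 4-week array or replicate 2 at 11 weeks (0.66 to 0.83) and the second without any 1 of the 4 KKAy arrays (-0.68 to -0.46). At 11 weeks Yy1 was 0.69 higher in KKAy, a call lost without any 1 of the arrays compared (0.55 to 0.82).

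The list of 18 citric acid cycle genes also held Pdha1, Pdhb, Dlat and Pdhx of the pyruvate dehydrogenase complex. None of the 18 was called between strains at 4 weeks, when 2 had an unadjusted p under 0.05 (limma). At 11 weeks 5 were lower in KKAy, where 11.5% of all genes were lower. With age 2 fell in KKAy, and in the interaction 2 were called, both lower. Idh3a, a subunit of isocitrate dehydrogenase, read 3.17 and 3.12 in C57BL/6J and 2.47 and 2.51 in KKAy at 11 weeks, a difference of -0.65 (SE 0.09, adjusted p = 0.00602). Fh1, fumarase, differed by -0.81 (SE 0.16, adjusted p = 0.0173). Both calls were lost without either C57BL/6J array, and that of Fh1 also without replicate 1 of KKAy (Idh3a -0.67 to -0.62, Fh1 -0.94 to -0.69). With age in KKAy Idh3a fell by 0.996.

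Of 17 measured carriers, uncoupling proteins and electron entry enzymes, 2 were higher in KKAy at 4 weeks, and at 11 weeks 1 was higher and 1 lower. Coq5, an enzyme of ubiquinone synthesis, read 1.72 and 1.84 in C57BL/6J and 2.80 and 3.02 in KKAy at 4 weeks (1.13, SE 0.14, adjusted p = 0.00430). At 11 weeks it read 1.67 and 1.80 against 2.49 and 2.74 (0.88, SE 0.14, adjusted p = 0.00826), a call lost without replicate 1 of C57BL/6J (0.76 to 1.01 over the arrays left out). Gpd2, the mitochondrial glycerol phosphate dehydrogenase, was 0.50 higher in KKAy at 4 weeks (adjusted p = 0.0475) and differed by -0.63 at 11 weeks (adjusted p = 0.0169). It read 1.93 and 1.79, then 2.08 and 1.97 in C57BL/6J, and 2.38 and 2.33, then 1.50 and 1.28 in KKAy. The 4-week call was lost without any 1 of the 4 arrays (0.43 to 0.57), and the 11-week call without either C57BL/6J array or replicate 2 of KKAy (-0.74 to -0.52). Its interaction was -1.13 (adjusted p = 0.0293), lost without any 1 array (-1.24 to -1.01). With age in KKAy 1 gene of this list rose and 2 fell. Coq2, of ubiquinone synthesis, rose by 0.63 (adjusted p = 0.0450), a call lost without any 1 of the 4 KKAy arrays (0.48 to 0.77). Pdss1, which makes the ubiquinone side chain, fell by 0.81 (adjusted p = 0.0390), a call lost without either 4-week array or replicate 1 at 11 weeks (-1.02 to -0.59). Gpd2 fell by 0.96 (adjusted p = 0.00524) and was called with each array left out. None of the 3 mitochondrially encoded subunits on the array was called in any of the 5 comparisons, nor did any have an unadjusted p under 0.05.

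Markers of other liver cells moved with strain and age. Counts of them, too, are to be read against the shares of all genes called given above. Of 13 markers of Kupffer cells and macrophages, KKAy had 11 lower at 4 weeks and 7 at 11 weeks, and with age 11 fell in C57BL/6J and 8 in KKAy. Their summed signal was 221 to 268 in C57BL/6J and 110 to 134 in KKAy at 4 weeks, and 109 to 126 and 81.6 to 104 at 11 weeks. Of 11 cell division markers 10 fell with age in C57BL/6J and 11 in KKAy, from 8.80 to 9.67 to 1.53 to 1.54 and from 11.1 to 12.9 to 1.70 to 1.88. Of 13 lymphocyte markers 8 were lower in KKAy at 4 weeks and 6 at 11 weeks, with sums of 3.60 to 3.93 against 1.61 to 1.72 and 1.46 to 1.48 against 0.978 to 1.04; with age 7 fell in C57BL/6J and 8 in KKAy. All markers of these 3 lists were measured. Of 6 measured erythroid markers 3 were higher in KKAy at 4 weeks (sums of 284 to 325 against 415 to 452), and at 11 weeks 2 were higher and 1 lower. With age 3 erythroid markers fell and 1 rose in C57BL/6J, and 4 fell and 1 rose in KKAy. Of 10 sinusoidal endothelium markers 1 was higher and 1 lower at 4 weeks and 1 higher and 2 lower at 11 weeks, and with age 1 fell in C57BL/6J and 4 in KKAy. Of 6 measured adipocyte markers 1 was higher and 2 lower at 4 weeks and 1 higher and 1 lower at 11 weeks, and 4 rose with age in C57BL/6J and 3 in KKAy. Among cell division markers 1 was higher in KKAy at 4 weeks, and 1 higher and 1 lower at 11 weeks, and of 6 pancreas markers 1 was lower in KKAy at 4 weeks and 1 higher at 11 weeks, with 1 lower with age in C57BL/6J. Their part in the differences of Ndufa11, Cox7c, Cox6a2, Cox6b2 and Sdha was not tested.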

How the data were processed

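Liver RNA of 8 samples in 4 groups of 2 was measured on 1-colour arrays. Agilent Feature Extraction 9.5.1.1 made the spot intensity values, per the file headers, with background subtraction and spatial detrending but no step between arrays. The deposited value table holds log2 values equal to the log2 processed signal minus 1 constant per array (within 0.001 for 100% of probe values compared; column medians -3.96 to -3.67); the sources used here do not name the tool behind it. Columns of no sample numbered 0. The table served as an alternative.

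From the deposited intensity values, repeated spots were averaged, control and outlier spots were left out, and each array's 75th percentile was subtracted on the log2 scale. The filter kept 25320 probes that stood well above background on both arrays in 1 group or more, and the brightest represented each gene (17048 genes). Names came from a reference table of GRCm38.p6 by accession (24496 probes), symbol (6234) or older symbol (2386); 8058 kept the name in the files. Members kept the name in the files, and 1 further probe that resolves to Sdha under another name was kept apart. Probe positions are those of the array annotation, on mm8. No member spot was saturated or an outlier (0).

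All 8 arrays entered 1 limma fit (R 4.3.3, limma 3.58.1 with lmFit then eBayes, 4 residual and 1.93 prior degrees of freedom) with 5 contrasts, with Benjamini-Hochberg adjustment across the 17048 genes and a threshold of 0.05. The 2 arrays a group limit the precision. Tested on simulated data made from these arrays, a rise of 1 log2 unit was recovered for 44% of changed genes in the strain comparison at 4 weeks and 36% at 11 weeks, a rise of 2 units for 66% and 68%, and a rise of 0.5 for 0% of both. With age a rise of 1 unit was recovered for 42% in C57BL/6J and 38% in KKAy, and in the interaction for 0%. The simulation changed fewer genes than were called in these comparisons and drew the values of each array independently. Its percentages therefore do not give the recovery in the measured comparisons. Alternatives were background correction by normexp (offset 50), quantile normalization, spike-in scaling, filters on dim probes, the deposited table, the median over probes, a replicate block, a fit of only the arrays compared, a variance trend and leaving out each array. Tables and figures were made with Python 3.11.15.

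The members and lists were chosen with earlier results of these data known. Named members are, per complex and comparison, up to 3 called rises and 3 called falls, members called in the interaction, the tissue isoforms of complex IV and Cycs, members whose probes disagree in sign where called, and, in each pathway list, up to 3 called genes with the smallest adjusted p; ranges also name their end members. One gene that this rule names is not reported here. Marker lists covered hepatocytes, skeletal muscle, adipocytes, macrophages, endothelium, lymphocytes, erythroid cells, pancreas and cell division.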

Additional observations from a re-analysis of the deposited data

Results flagged for a closer look

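The strain difference of Cox6b2 changed with age. KKAy minus C57BL/6J was -0.02 at 4 weeks and -1.06 at 11 weeks, and the difference between these, -1.05 (SE 0.16, adjusted p = 0.0306, limma), passed the interaction test over all genes. Under the alternatives the adjusted p ran from 0.00426 to 0.152. The 4-week and 11-week arrays lay on different slides, and the effects of age and slide cannot be told apart.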

How the results depend on the processing

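With 2 arrays a group, counts of calls were small and moved with the processing, and the cause of each move was not tested. The fit of only the 4 arrays compared has fewer samples. The fit without a filter has more genes in both the spread estimate and the adjustment. For strain at 4 weeks, where 2 members were called, normexp gave 1, no filter 0, the median of all probes 4 and the 4 arrays alone 0. For strain at 11 weeks (3 called) no filter gave 1. For age in C57BL/6J (1 called) normexp, spike-in scaling, no filter and the 4 arrays alone each gave 0. For age in KKAy (2 called) each of the same 4 settings gave 1. For the interaction (1 called) normexp, spike-in scaling and no filter each gave 0. Leaving out 1 array gave 0 to 1 calls for strain at 4 weeks, 1 to 3 at 11 weeks, 0 to 0 for age in C57BL/6J, 1 to 1 in KKAy and 0 to 0 for the interaction. The median difference of the members ranged then from -0.17 to 0.18, -0.07 to 0.33, -0.12 to 0.24, 0.03 to 0.40 and -0.06 to 0.31, and spike-in scaling moved that of strain at 4 weeks to 0.35.

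Replicate numbers are shared between groups without a stated pairing. The differences between replicates correlated between groups at 0.530 to 0.676 over all genes, which with 2 numbers does not establish a pairing. A fit with the replicate number as a block called 17 members for strain at 4 weeks, 5 higher and 12 lower. Of all genes it called 43.8%, 21.4% higher and 22.4% lower. At 11 weeks it called 39 members, 30 higher and 9 lower (all genes 54.9%, 27.4% and 27.5%). For age in C57BL/6J it called 4, 2 higher and 2 lower (33.8%, 16.4% and 17.4%). In KKAy it called 45, 39 higher and 6 lower (53.4%, 27.4% and 26%). For the interaction it called 17, 14 higher and 3 lower (31.0%, 16.3% and 14.8%). Among the members carried through the alternatives and not called in a comparison, Cox7a1 (adjusted p = 0.0189 at 4 weeks and 0.00518 at 11 weeks between strains, 0.00972 and 0.00254 with age in C57BL/6J and KKAy), Cycs (0.0350 and 0.0441 between strains, 0.0160 with age in KKAy, 0.0226 for the interaction), Cox6a2 at 11 weeks (0.0463) and Cox7c at 4 weeks (0.00285) passed in that fit.

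Some directions turned. Cox6a2 with age in KKAy was -0.11 under spike-in scaling and -0.084 to 0.279 with 1 array left out. Cox6b2 between strains at 4 weeks was 0.024 under normexp, 0.017 under quantile normalization, 0.33 under spike-in scaling and -0.083 to 0.051 with 1 array left out. Cox7a1 between strains at 4 weeks was 0.080 under spike-in scaling, and its interaction ran from -0.32 to 0.11 with 1 array left out. Cycs ran from -0.053 to 0.589 (strain at 4 weeks), -0.546 to 0.085 (11 weeks) and -0.15 to 0.49 (age in C57BL/6J) in the same way. The signal of Cox6a2 was dim, and its strain difference under normexp went from -1.30 to -0.46 at 4 weeks and from -0.79 to -0.19 at 11 weeks.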
